A study of Arabidopsis thaliana with 22 samples.

Results

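The plastid genome of Arabidopsis thaliana carries 5 transfer RNA genes shorter than 100 bp between TAIR10 plastid positions 1 and 29000, and these were chosen by length and position among the 112 plastid genes analysed. They are trnH at Pltd:4-76, trnQ at Pltd:6616-6687, trnS (ArthCt091) at Pltd:7785-7872, trnR (ArthCt093) at Pltd:9590-9661 and trnC at Pltd:27373-27443. Of all 30 transfer RNA genes, 19 others are also under 100 bp and 6 are longer because they contain an intron. Accessibility was measured by ptATAC-seq, which counts where the Tn5 transposase can place adapters along plastid DNA. Libraries of the nucleoid fraction were set against libraries of the naked fraction, named in the labels as naked DNA, and the labels number 11 replicates in either. Both fractions came from leaf chloroplasts of 14-day-old wild-type plants of ecotype Col-0, fixed with 4% formaldehyde for 4 h per the labels' protocols. The labels give 1 protocol text for both fractions and do not say how the naked DNA was freed of protein.

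Chloroplasts translate their own messages, and the plastid genome encodes the transfer RNAs used for this. The 5 genes encode the transfer RNAs for histidine (trnH), glutamine (trnQ), serine (trnS), arginine (trnR) and cysteine (trnC). Bacterial-type and phage-type RNA polymerases both transcribe plastid genes, and many transfer RNA genes are strongly transcribed. In the nucleoid, plastid DNA is held with proteins and RNA, often at the thylakoid membrane. Bound protein can keep Tn5 off a stretch of DNA, and Tn5 also prefers some sequences of bare DNA. The naked fraction is used here as that background. The labels do not show that the fractions differ in bound protein alone.

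The columns of nucleoid replicates 9 and 10 held identical counts over the 154477 positions, a difference below sampling noise, so this pair entered as 1 sample. Total counts ranged from 202725 to 1813905 in the 10 nucleoid libraries and from 105763 to 1195649 in the 11 naked libraries. Naked replicates 9, 10 and 11 stood apart in how unevenly their counts lay along the genome. Their unevenness, measured as the spread (SD) of log2 signal between windows of 200 bp, was 1.36 to 1.63, against 0.44 to 0.96 in nucleoid libraries and 0.53 to 1.01 in the other naked libraries. Nothing in the labels says that replicates came from separate plants, so p-values measure the spread between these samples, which may be technical.

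Signal is the mean count per position of a gene in percent of the library's mean over the whole plastid genome, so 100 is the genome mean. Tn5 signal in trnQ and trnC was lower in nucleoid libraries by 0.96 on the log2 scale in each, and trnH was lower by a smaller change. Signal in trnS and trnR did not pass the test. Of all 112 genes, 27 or 24.1% were called lower (limma, Benjamini-Hochberg adjusted p under 0.05) and 11 were called higher. Scaling each library to its median window in place of its mean gave 30 lower and 1 higher. That scaling moved the median log2 change of all genes to -0.05, from 0.10 with the mean, and trnQ, trnC and trnH were called lower under both.

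Signal in trnQ, the glutamine transfer RNA gene, ranged from 45.5 to 104 with a median of 82.5 in nucleoid libraries. In naked libraries it ranged from 125 to 213 with a median of 134. The highest nucleoid library lay below the lowest naked library, and trnQ was the only gene of 112, or 0.893%, whose nucleoid libraries all lay below all naked libraries in signal. Nucleoid libraries averaged 78.2 ± 19.8 (SD, n = 10), against 151 ± 30 for naked libraries (SD, n = 11). The log2 change was -0.96 (SE 0.14, limma adjusted p = 9.07e-05), the lowest of the 112 genes. Among libraries with more than 600000 counts the means were 82.2 in 8 nucleoid libraries and 139 in 5 naked libraries, a change of -0.78 (limma adjusted p = 0.00317).

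Signal in trnC, the cysteine transfer RNA gene, ranged from 40.8 to 107 with a median of 66.9 in nucleoid libraries. In naked libraries it ranged from 95.6 to 176 with a median of 128. The fractions overlapped here, although 8 of 10 nucleoid libraries lay below the lowest naked library. Nucleoid libraries averaged 71.2 ± 26.2 (SD, n = 10), against 133 ± 27 for naked libraries (SD, n = 11). The log2 change was -0.96 (SE 0.18, limma adjusted p = 0.000572), next to trnQ in rank. Among the libraries with more than 600000 counts the means were 78.4 in nucleoid and 132 in naked libraries, a change of -0.79 (limma adjusted p = 0.0207).

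Signal in trnH, the histidine transfer RNA gene, ranged from 56.9 to 110 with a median of 70.2 in nucleoid libraries. In naked libraries it ranged from 67.6 to 165 with a median of 104. The fractions overlapped widely, with 3 of 10 nucleoid libraries below the lowest naked library. Nucleoid libraries averaged 74.2 ± 14.2 (SD, n = 10), against 108 ± 31 for naked libraries (SD, n = 11). The log2 change was -0.50 (SE 0.14, limma adjusted p = 0.0136), at rank 10 of the 112 genes counted from the lowest. This call depended on the libraries used. Naked replicates 9, 10 and 11, of uneven signal, had signals of 165, 145 and 115 in trnH. Naked replicate 6, the library with the fewest counts, had 140. Without naked replicates 9, 10 and 11 the change was -0.34 (limma adjusted p = 0.0618). Among the libraries with more than 600000 counts it was -0.29 (limma adjusted p = 0.0924). Why the call moved was not tested.

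Signal in trnS (ArthCt091), a serine transfer RNA gene, ranged from 86.2 to 132 with a median of 98.3 in nucleoid libraries. In naked libraries it ranged from 48.3 to 136 with a median of 103. No nucleoid library lay below the lowest naked library, and the log2 change was 0.15 (95% interval -0.21 to 0.51, limma adjusted p = 0.444). The lowest values in naked libraries were 49.2, 59.0 and 48.3 in replicates 9, 10 and 11, against 95.2 to 136 in the other naked libraries. Without those 3 libraries the sign turned, to -0.15 (limma adjusted p = 0.199).

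Signal in trnR (ArthCt093), an arginine transfer RNA gene, was the lowest of the 5 in both fractions by its mean. It ranged from 44.4 to 75.8 with a median of 60.1 in nucleoid libraries, and from 34.5 to 61.0 with a median of 53.3 in naked libraries. The fractions overlapped, and the log2 change was 0.24 (95% interval 0.01 to 0.46, limma adjusted p = 0.0922). It passed without nucleoid replicate 3 (0.28, limma adjusted p = 0.0478). In naked libraries the order of mean signal was trnQ at 151, trnC at 133, trnH at 108, trnS at 96.1 and trnR at 50.5. In nucleoid libraries trnS was highest at 102 ± 14 and trnR lowest at 59.3 ± 9.0, and trnQ, trnH and trnC lay between them at 78.2, 74.2 and 71.2, closer to each other than their SDs.

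**Figure D1:**
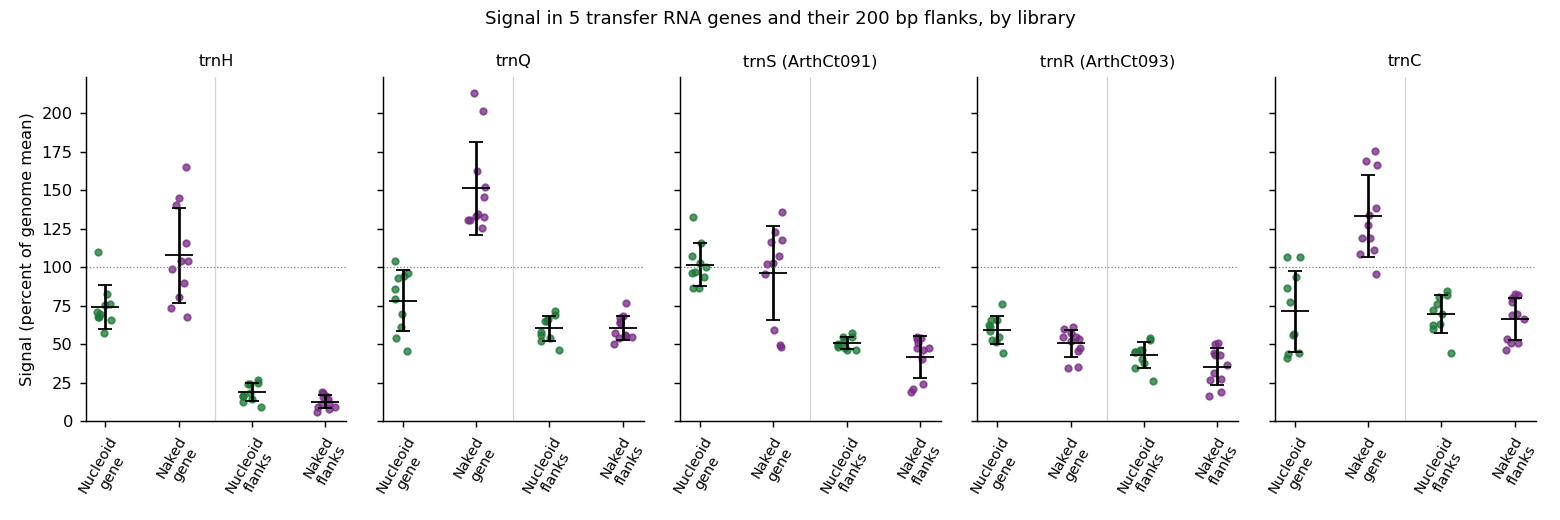
Signal in each transfer RNA gene and in its flanks of 200 bp, in percent of the library's genome mean (vertical axis), with 1 point per library and the mean and SD over 10 nucleoid or 11 naked libraries. The trnQ gene points of nucleoid libraries end at 104, below the lowest naked point at 125, while the trnQ flank points of both fractions overlap.

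The genes hold few counts in the shallow libraries, which limits the precision of single points. The lowest library held 70 counts in trnH, 69 in trnQ, 57 in trnS, 17 in trnR and 38 in trnC. Counting error alone was 24.3% of the value for those 17 counts in trnR and 16.2% for the 38 counts in trnC. These figures cover counting error only, since duplicate reads cannot be told from separate insertions in these counts.

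Each gene was next set against the 200 bp on each side of it in the same library, as log2 of signal in the gene over signal in its flanks. This comparison asks whether a change belongs to the gene or to the wider stretch of DNA around it. In trnQ, trnC and trnH the ratio fell in nucleoid libraries, and in trnS and trnR it did not pass the test. Lower ratios were common among all genes, with 46 of 112 or 41.1% called lower (limma) and 3 called higher. The 5 transfer RNA genes had a median change of -0.95 on this log2 ratio, against -0.17 over all 112 genes.

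The trnC ratio on the log2 scale ranged from -0.52 to 0.61 with a median of -0.13 in nucleoid libraries, and from 0.65 to 1.32 with a median of 1.05 in naked libraries. All 10 nucleoid libraries lay below the lowest naked library. On the linear scale trnC held 1.01 times its flanks' signal on average in nucleoid libraries and 2.04 times in naked libraries. The change of the log2 ratio was -1.03 (SE 0.13, limma adjusted p = 1.07e-05). On average the gene therefore stood above its surroundings in naked DNA and level with them in nucleoids. Single nucleoid libraries lay on both sides of that level. Nucleoid replicates 1, 3, 4 and 5 held 1.20 to 1.53 times their flanks' signal, and the other nucleoid libraries 0.69 to 0.91 times. Single naked libraries ranged from 1.57 to 2.52 times.

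The trnQ ratio on the log2 scale ranged from -0.19 to 0.82 with a median of 0.46 in nucleoid libraries, and from 0.99 to 1.91 with a median of 1.26 in naked libraries. Here too all 10 nucleoid libraries lay below the lowest naked library. The trnQ gene held 1.31 times its flanks' signal on average in nucleoid libraries and 2.51 times in naked libraries. The change of the log2 ratio was -0.95 (SE 0.13, limma adjusted p = 2.01e-05). Of all 112 genes, trnQ and trnC were the 2, or 1.79%, in which the ratios of the fractions did not overlap in this direction.

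The trnH ratio on the log2 scale ranged from 1.20 to 3.41 with a median of 1.98 in nucleoid libraries, and from 1.99 to 4.08 with a median of 3.20 in naked libraries. The fractions overlapped, with 7 of 10 nucleoid libraries below the lowest naked library. The change was -1.05 (SE 0.28, limma adjusted p = 0.00751), the lowest of the 112 genes, with an SE wider than the 0.13 of trnQ and of trnC. That rank rests on a flank clipped at the table's start, which leaves 3 positions, all at 0, on the left. With the flank continued across the ends of the table the change was -0.75 (limma adjusted p = 0.0199), a smaller decrease than in trnQ and trnC. That continued flank takes in the last 40 positions of the table, which held no counts in any library. With flanks of 500 bp the change was -0.52 (limma adjusted p = 0.0159). It was -0.73 without naked replicates 9, 10 and 11 (limma adjusted p = 0.0524) and -0.81 with flanks of 100 bp (limma adjusted p = 0.102).

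The trnS ratio on the log2 scale ranged from 0.72 to 1.49 in nucleoid libraries and from 0.89 to 1.51 in naked libraries. Its change of -0.21 had a 95% interval of -0.40 to -0.02 and did not pass after adjustment (limma adjusted p = 0.0669). Without nucleoid replicate 11, which had the highest trnS ratio of that fraction, the change passed at -0.26 (limma adjusted p = 0.0117), and it also passed without naked replicate 2 (-0.23, limma adjusted p = 0.0413) or naked replicate 4 (-0.24, limma adjusted p = 0.0386). The trnR ratio ranged from -0.04 to 1.20 in nucleoid libraries and from -0.31 to 1.45 in naked libraries. Its change was -0.09 with a 95% interval of -0.50 to 0.31 (limma adjusted p = 0.690), and it turned to 0.10 without naked replicates 9, 10 and 11 (limma adjusted p = 0.746).

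**Figure D2:**
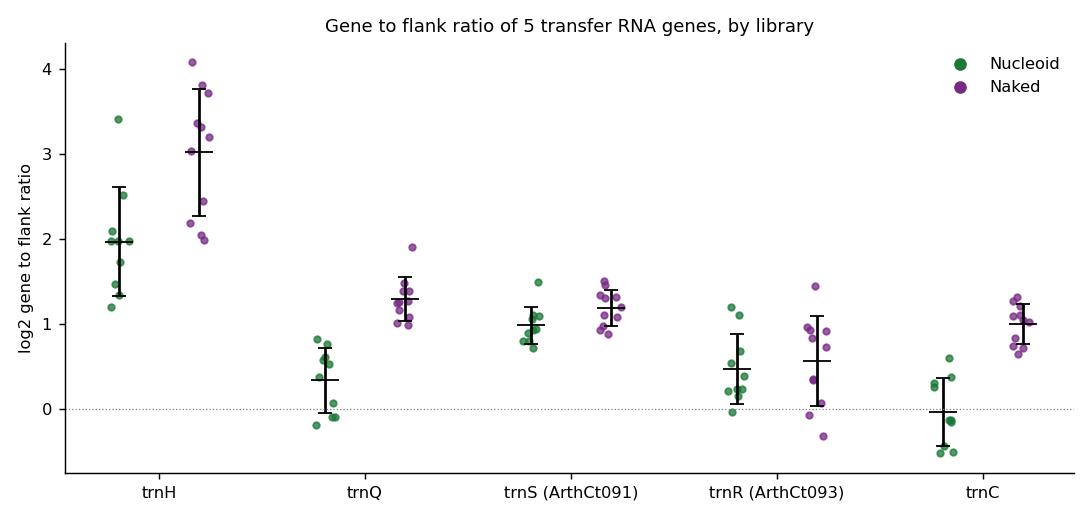
log2 ratio of signal in the gene to signal in its 200 bp flanks (vertical axis) for each transfer RNA gene, with 1 point per library and the mean and SD of each fraction; the dotted line marks equal signal in gene and flanks. Nucleoid points lie below all naked points in trnQ and trnC and overlap with them in trnH, trnS and trnR.

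The flanks themselves were tested in the same way over all genes, and 43 of 112 flank pairs, or 38.4%, were called in either direction (limma). The flanks of trnQ had signals of 60.2 ± 8.3 in nucleoid libraries and 60.6 ± 7.9 in naked libraries, a log2 change of -0.01 with a 95% interval of -0.19 to 0.17. Those of trnC had 69.5 ± 12.3 in nucleoid libraries and 66.1 ± 13.7 in naked libraries, a log2 change of 0.08 with an interval of -0.18 to 0.34. The near-0 change of the trnQ flanks combined sides that differed in opposite directions, with 62.5 in nucleoid and 73.4 in naked libraries on the left, and 57.8 in nucleoid and 47.7 in naked libraries on the right. For trnC the left flank had 53.2 in nucleoid and 45.1 in naked libraries, and the right flank had 85.8 in nucleoid and 87.2 in naked libraries. In trnH the flank signal rose to 18.8 ± 6.0 in nucleoid libraries, against 12.6 ± 4.3 in naked libraries (log2 change 0.55, limma adjusted p = 0.0378). The trnH ratio change on the log2 scale thus combined a lower gene signal with a higher flank signal.

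The flanks of trnS and trnR had log2 changes of 0.36 (limma adjusted p = 0.0913) and 0.33 (limma adjusted p = 0.132), which did not pass. In trnS the sides were unequal, with 84.0 on the left and 17.2 on the right in nucleoid libraries, and 73.5 on the left and 9.9 on the right in naked libraries. The trnS gene thus borders a stretch that took few insertions in either fraction.

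Windows of 50 bp over the whole genome placed the changes more closely, and 356 of 3083 windows, or 11.5%, were called lower (limma) and 526 higher, against 462 lower and 300 higher with median scaling. Both windows over trnQ were called lower, at Pltd:6601-6650 (-0.72, limma adjusted p = 0.00045) and Pltd:6651-6700 (-0.98, limma adjusted p = 0.00163). The windows next to them on either side did not pass, with -0.23 on the left and -0.02 on the right. Farther out, windows at Pltd:6501-6550 (0.93), Pltd:6751-6800 (0.34) and Pltd:6801-6850 (0.60) were called higher in nucleoid libraries. In 20 bp bins the trnQ decrease began just left of the gene, where the bin centred 70 bp left of the gene's centre had 125 in nucleoid and 169 in naked libraries, and the bin centred 50 bp left of it had 157 in nucleoid and 194 in naked libraries. It ended at the right edge of the gene, where the bin centred 50 bp right of the centre had 34.6 in nucleoid and 35.3 in naked libraries.

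Both windows over trnC were also called lower, at Pltd:27351-27400 (-0.94, limma adjusted p = 0.0018) and Pltd:27401-27450 (-0.61, limma adjusted p = 0.0136). The 50 bp window right of the gene was called higher (0.55, limma adjusted p = 0.0103), and the one after it, Pltd:27501-27550, lower (-0.39, limma adjusted p = 0.0117). The bins on either side of trnC, centred 50 bp from its centre, had 35.7 on the left and 49.5 on the right in nucleoid libraries, and 25.8 on the left and 37.4 on the right in naked libraries. The lower signal within the gene was thus bordered on both sides by bins with higher means in nucleoid libraries. It was not confined to the gene, since the bin centred 110 bp right of the centre had 41.4 ± 23.2 in nucleoid and 81.1 ± 20.7 in naked libraries, a log2 change of -1.14, against -1.21 in the bin centred 10 bp left of the centre.

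**Figure D3:**
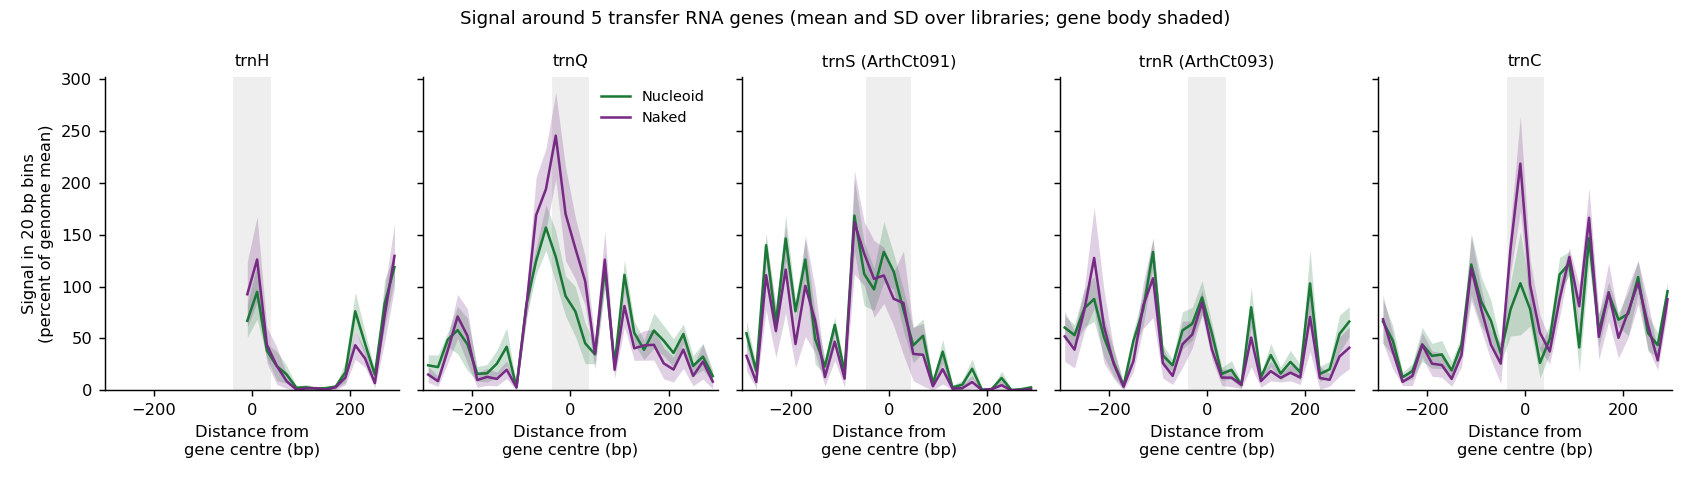
Mean signal in 20 bp bins (vertical axis, percent of the genome mean) by distance from the centre of each transfer RNA gene in bp (horizontal axis), with the SD over libraries as bands and the gene shaded. In trnQ and trnC the nucleoid line lies below the naked line within the gene, and also outside it at 70 and 50 bp left of the trnQ centre and at 110 bp right of the trnC centre. For trnH bins start where a full 20 bp of the table is available.

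In trnS no window touching the gene was called, while 3 windows beside it were called higher, Pltd:7551-7600 (0.48), Pltd:7701-7750 (0.63) and Pltd:7901-7950 (1.14). The last of these had few insertions, with 20.1 in nucleoid and 10.9 in naked libraries. In trnR the window at Pltd:9551-9600, which covers the first 11 bp of the gene, was called higher (0.53, limma adjusted p = 0.0216), as was Pltd:9701-9750 (0.74, limma adjusted p = 0.0356). In trnH the first window of the table was called lower (-0.55, limma adjusted p = 0.0123), and Pltd:251-300 was called higher (0.76, limma adjusted p = 0.00264).

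Within the genes, the trnQ signal was lower on both sides of the gene's middle, with 90.0 ± 18.6 in nucleoid and 169 ± 36 in naked libraries on the left, and 66.5 ± 22.6 in nucleoid and 133 ± 29 in naked libraries on the right. The trnC signal was lower mostly on the left, with 84.9 ± 37.8 in nucleoid and 180 ± 34 in naked libraries there, and 57.2 ± 15.4 in nucleoid and 84.9 ± 21.4 in naked libraries on the right. By single positions, nucleoid means were below naked means at 61 of 72 positions in trnQ, 53 of 71 in trnC, 45 of 73 in trnH, 33 of 88 in trnS and 19 of 72 in trnR. The share over all plastid positions was not computed, so these counts are a description only. Over all windows of 50 bp the median log2 change was 0.20. A few positions took much of the signal, with the 5 highest holding 30.3% in nucleoid and 30.7% in naked libraries in trnQ, and 40.1% in nucleoid and 41.2% in naked libraries in trnC.

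The position with most signal in naked trnQ was 6642, at 308 ± 88 in nucleoid and 833 ± 323 in naked libraries. In naked trnC it was 27391, at 404 ± 188 in nucleoid and 1027 ± 181 in naked libraries. Both lie inside the gene. Leaving out the 5 highest positions of every gene left the ratio change at -0.95 for trnQ and -1.04 for trnC (limma adjusted p = 4.99e-05 for both), so the decreases did not rest on those positions. For trnR the same step gave a signal change that passed the test (0.40, limma adjusted p = 0.0266).

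The trnH gene needs a separate account because it lies at the start of the table, where the genome's circle is opened. The table held no counts at its first 4 positions and its last 40 in any library, and the first count stood at position 5, inside the gene. The first 25 positions had 73.7 ± 13.99 in nucleoid and 139 ± 44 in naked libraries. Positions 26 to 50 had 82.9 ± 20.4 in nucleoid and 97.4 ± 34.6 in naked libraries, and positions 51 to 76 had 57.8 ± 16.5 in nucleoid and 74.6 ± 26.4 in naked libraries. The change of trnH was thus greatest at the very edge, and the first 4 counted positions alone held 14.01% of the gene's counts in nucleoid and 21.2% in naked libraries. Without the first 25 positions the signal change was -0.27 (limma adjusted p = 0.153), no longer past the threshold, and the ratio change was -0.82 (limma adjusted p = 0.0351). Right of the gene the signal was 15.9 in nucleoid and 13.3 in naked libraries at positions 77 to 126. It was close to 0 at positions 127 to 176, with 2.75 in nucleoid and 1.69 in naked libraries. Positions 177 to 226 had 3.7 in nucleoid and 2.4 in naked libraries. At positions 227 to 276, still in the flank, the signal was 53.9 ± 15.1 in nucleoid and 33.6 ± 10.1 in naked libraries. The higher flank signal of nucleoid libraries lay mostly there.

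Differences between the 5 genes were tested directly, as the difference of log2 ratios of both genes of a pair within each library. Of 10 pairs, 6 passed a two-sided permutation test with 100000 resamples over libraries and adjustment over the 10 pairs. They set trnQ, trnC and trnH apart from trnS and trnR. The trnQ ratio changed by -0.75 relative to trnS (permutation, adjusted p = 0.0001) and by -0.86 relative to trnR (permutation, adjusted p = 0.00514). The trnS ratio changed by 0.83 relative to trnC (permutation, adjusted p = 0.0001), and trnR by 0.94 relative to trnC (permutation, adjusted p = 0.00407).

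The trnH ratio changed by -0.84 relative to trnS (permutation, adjusted p = 0.00717) and by -0.96 relative to trnR (permutation, adjusted p = 0.000567). The pairs trnH and trnQ (-0.10), trnH and trnC (-0.02), trnQ and trnC (0.08), and trnS and trnR (-0.12) did not pass, with adjusted permutation p from 0.517 to 0.958. A p that misses the threshold does not show that these pairs act alike. With flanks of 100 bp only 3 pairs passed, and trnH then differed from neither trnS (-0.67, adjusted permutation p = 0.214) nor trnR (-0.63, adjusted permutation p = 0.131), while trnQ against trnR had -0.65 (adjusted permutation p = 0.0578). With the trnH flank continued across the ends of the table, trnH against trnS had -0.54 (adjusted permutation p = 0.0552).

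Of the 8 nearest neighbours of the 5 genes, psbA was called lower in signal and the others were not called, where 24.1% of all 112 genes were called lower. On the right of trnH lies psbA, which encodes the D1 protein of photosystem II, 306 bp away. Its signal fell to 120 ± 8 in nucleoid libraries, against 144 ± 19 in naked libraries (log2 change -0.26, limma adjusted p = 0.00737). Beside trnQ lie rps16, a small ribosomal subunit protein gene (0.39, limma adjusted p = 0.0996), and psbK, a photosystem II gene (0.01, limma adjusted p = 0.959). Beside trnC lie rpoB, a subunit gene of the bacterial-type polymerase, and petN, a cytochrome b6f gene, with log2 changes of 0.0035 (limma adjusted p = 0.951) and 0.0031 (limma adjusted p = 0.971).

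Beside trnS lie the photosystem II gene psbI, 91 bp to its left (0.41, limma adjusted p = 0.134), and trnG (ArthCt092), a glycine transfer RNA gene (0.33, limma adjusted p = 0.227). The trnG gene also lies left of trnR, and atpA, an ATP synthase subunit gene, lies right of it (-0.06, limma adjusted p = 0.305). In the ratio to their own flanks, 4 of the 8 neighbours were called lower, near the share over all genes (46 of 112 or 41.1%). The 4 neighbours were psbK (-0.58, limma adjusted p = 0.000265), psbA (-0.34, limma adjusted p = 0.00753), rpoB (-0.29, limma adjusted p = 0.0171) and rps16 (-0.14, limma adjusted p = 0.0198).

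Set beside other classes of genes, 3 of the 5 genes were called lower in signal and 0 higher, with a median log2 change of -0.50. Over all 112 genes, 27 or 24.1% were called lower in signal. Of the 19 other short transfer RNA genes, 13 passed as lower and 0 as higher, with a median of -0.41. The neighbouring cluster trnD, trnY and trnE, for aspartate, tyrosine and glutamate, had 3 of 3 called lower and a median of -0.75. The 4 ribosomal RNA genes had the same median in signal, -0.50, with 3 called lower and 0 higher, and in ratio 1 was called lower, with a median of -0.14. Of the 6 transfer RNA genes with introns, 1 was called lower in signal, with a median of 0.06, and 0 in ratio. Of 14 protein-coding genes listed with a span under 150 bp, the closest to transfer RNA genes in listed length, 1 was called lower in signal, with a median of 0.21. That 1 was rps12, by its listed span of 114 bp (-0.41).

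In the ratio to flanks, 3 of the 5 genes were called lower, and over all 112 genes 46 or 41.1% were. The other lists had 15 of the 19 other short transfer RNA genes, 4 of the 14 short protein-coding genes and 27 of 78 protein-coding genes in all. The medians on the log2 ratio scale were -0.95 for the 5 genes, -0.33 for the 19 others, -0.14 for the short protein-coding genes and -0.15 for all protein-coding genes. The 19 others ranged from -0.75 to -0.06, so trnQ and trnC lay below the lowest of them, and trnS and trnR lay within their range. The trnH value lay below them with its clipped flank, and at -0.75 not below the lowest of them with its flank continued across the ends of the table. These differences between lists were not tested.

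**Figure D4:**
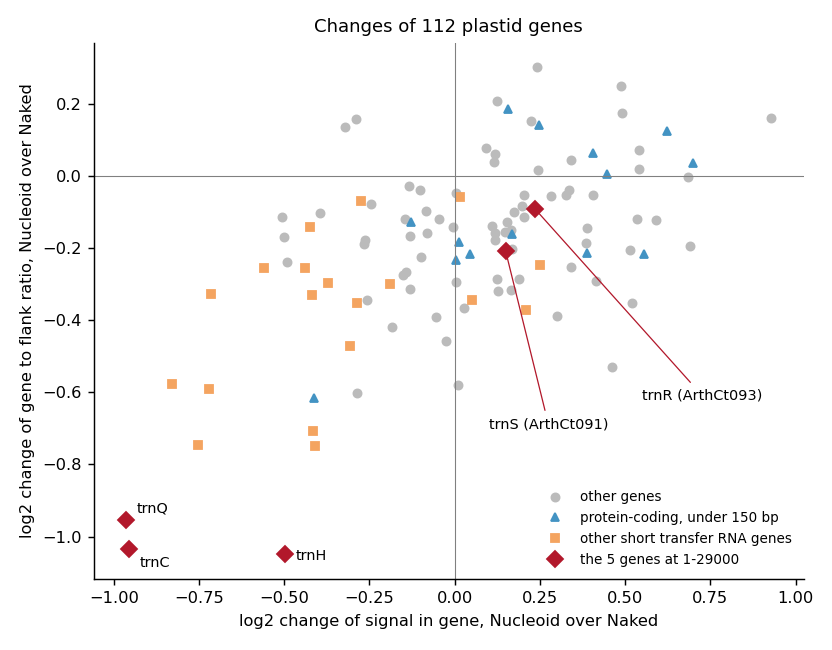
log2 change of signal in the gene (horizontal axis) against log2 change of the gene to flank ratio (vertical axis), nucleoid over naked, for 112 plastid genes, with 1 point per gene. The trnQ and trnC points lie at the lower left, with signal changes of -0.96 each, trnH lies below with a ratio change of -1.05, and trnS and trnR lie among the other genes.

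Likeness between genes was measured as Pearson's r of log2 ratios over the 21 libraries after each fraction's mean was removed. The values share libraries and their depth, so they are given as a description. The gene most like trnQ was trnC (r = 0.82), and the gene most like trnC was trnQ, although they lie far apart on the genome. Differences among nucleoid libraries stay in this r. The same set of nucleoid libraries had the higher signal in both genes, as given under other observations. How far that enters this r was not tested. The second for both was rps12, a ribosomal protein gene with a listed span of 114 bp (r = 0.82 with trnQ and 0.71 with trnC). The median r of trnQ with all genes compared was 0.27, and that of trnC was 0.20.

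The trnH ratio was most like that of ArthCt100, a short transfer RNA gene (r = 0.95), and of trnL (ArthCt101), a leucine transfer RNA gene with an intron (r = 0.95). The trnR ratio was most like those of psaC, a photosystem I gene, and ndhE, a gene of the NDH complex (r = 0.92 and 0.90). These are high values beside medians of 0.65 for trnH and 0.61 for trnR, whose ratios followed many genes. The trnS ratio was most like those of trnI (ArthCt113), an isoleucine transfer RNA gene, and ycf4, a photosystem I assembly gene (r = 0.79 each). Among the 5 genes themselves, r was 0.76 between trnH and trnR and -0.13 between trnQ and trnR.

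The decreases of trnQ and trnC stayed past the threshold under every alternative that was run for signal and for ratio, and with any 1 of the 21 libraries left out. The ratio change of trnQ lay between -1.08 and -0.77 over 16 alternative settings, with the highest adjusted p at 0.0148 (limma), among libraries with more than 600000 counts. The ratio change of trnC lay between -1.10 and -0.77, with the same highest adjusted p. With log2 depth in the model the ratio changes were -0.87 for trnQ and -1.005 for trnC, and with unevenness in the model they were -0.88 and -0.97.

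**Figure D5:**
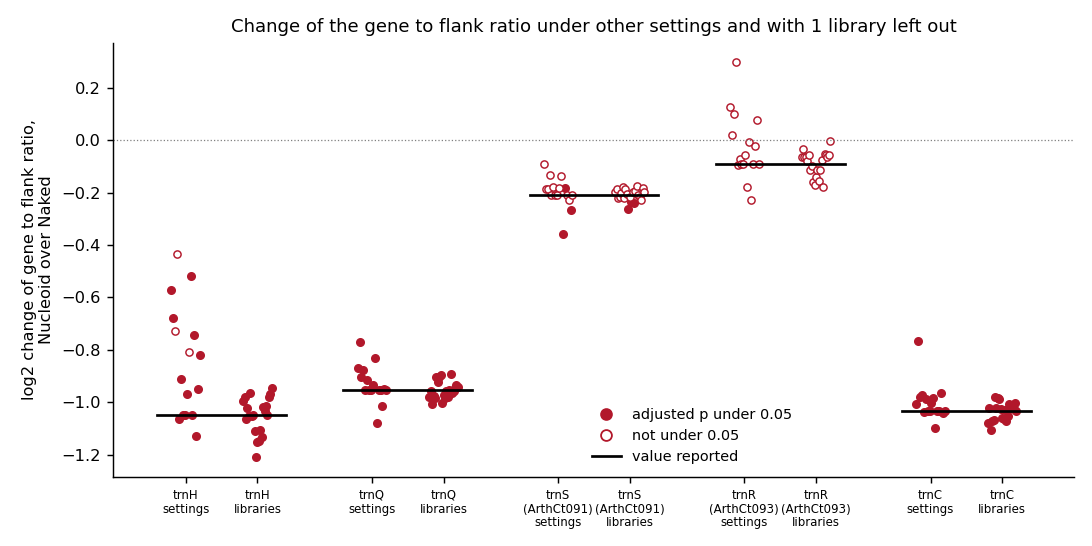
log2 change of the gene to flank ratio, nucleoid over naked (vertical axis), for each transfer RNA gene under 16 alternative settings (left group) and with each of 21 libraries left out (right group), with filled points where the limma adjusted p was under 0.05 and a line at the value reported. All points of trnQ and trnC are filled and lie at -0.77 or below, trnH has 3 open points, and trnR spreads on both sides of 0.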

How the data were processed

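The authors deposited 1 table with a line for each of 154477 plastid positions and a column of whole-number counts for each of 22 libraries. Positions are TAIR10 per the file headers, and Trim Galore 0.4.1, Bowtie2 2.2.8.9 and bedtools 2.25.0 are named in the submitters' processing notes. Filters on duplicates and mapping quality, and any shift of read ends to the insertion, are not given in the sources used here. The deposited counts behaved as read ends, not coverage, with a correlation between neighbouring positions of 0.037. Gene limits came from a RefSeq table of TAIR10.1. Both share coordinates, since counts of the inverted repeats mirrored each other best (r = 0.909) at the position sum of the ndhB copies, 238649. Every column matched a sample by name.

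Signal was scaled to each library's genome mean. limma 3.58.1 (R 4.3.3) was fitted on log2(signal + 1), and on log2((gene + 1)/(flank + 1)), over 112 genes and over the 3083 of 3089 windows of 50 bp with a mean scaled count of at least 10, with two-sided p-values adjusted by Benjamini-Hochberg and called under 0.05. Fold changes are on these scales, and the added 1 shrinks changes of low windows. Flanks of 200 bp ended at the ends of the table. Pairs of genes were compared by permutation of libraries (numpy 2.4.6). The limma fit of signal in genes and in windows of 50 bp was checked on simulated counts, with noise drawn separately for each gene or window. The ratio to flanks and the permutation of pairs were not part of that check.

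Samples were grouped by the fraction named in their labels. Named are the 5 genes, their nearest neighbours, and for each the 2 genes at least 1000 bp away with the highest r. The members, lists and tests were chosen with earlier results of these data known. A planned count model was not run, because the unit check could not read the space-separated columns as counts. limma's voom was run instead, beside the alternatives of depth, unevenness, scaling, pseudocount, filter, flanks and libraries. No sequences are shown.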

Additional observations from a re-analysis of the deposited data

Results flagged for a closer look

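In 2 of 15 values tested with Dixon's criterion (3 measures of the 5 genes over the 10 nucleoid libraries), 1 library lay far from the rest, where chance gives about 0.75. Both were nucleoid replicate 11, which had the fewest counts of that fraction. Its signal in trnH was 109.6, and the next highest nucleoid library had 82.8. Its log2 ratio of gene to flanks in trnS was 1.49, and the next highest was 1.10. Without this library the trnH signal change was -0.56, and the trnS ratio change passed the threshold as given above.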

How the results depend on the processing

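The changes of trnQ and trnC kept their direction and their call under all alternatives run and in all leave-one-out fits. The number of genes called for signal (38) was 20 with log2 depth in the model and 15 among libraries with more than 600000 counts. The number called for the ratio (49) was 26 with depth, 30 among those libraries, 29 without naked replicates 9, 10 and 11, and 26 with unevenness in the model. The number of windows called (882) was 384 with depth, 238 among those libraries, 518 without naked replicates 9, 10 and 11, and 574 with unevenness. Leaving out 1 library gave 30 to 43 genes for signal, 36 to 70 genes for the ratio and 534 to 1262 windows, with 534 without nucleoid replicate 6 and 582 without naked replicate 10. Of the 10 pairs, 3 passed with flanks of 100 bp. The causes were not tested.

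The trnH signal also lost its call when depth (-0.30, limma adjusted p = 0.0987) or unevenness (-0.27, limma adjusted p = 0.139) entered the model, and the trnH ratio with unevenness (-0.43, limma adjusted p = 0.0652). Signs turned only in values that had not passed. The trnS signal was -0.21 among libraries with more than 600000 counts, -0.15 without naked replicates 9, 10 and 11, -0.17 with unevenness and -0.0022 with median scaling. The trnR ratio was 0.13 with depth, 0.019 among those libraries, 0.099 without naked replicates 9, 10 and 11, 0.30 with unevenness and 0.077 without the 5 highest positions. With flanks of 100 bp, among those libraries, without naked replicates 9, 10 and 11, and with flanks across the ends of the table, trnH minus trnQ was 0.024, 0.090, 0.17 and 0.21, and trnH minus trnC was 0.18, 0.088, 0.25 and 0.29. Among those libraries trnQ minus trnC was -0.0018, and with flanks of 100 bp trnS minus trnR was 0.044. The trnS ratio also passed with flanks of 500 bp, with flanks free of other genes and without the 5 highest positions.

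Leaving out the 5 highest positions, or the first 25 positions of the table, was chosen after seeing the data. Whether replicate numbers pair the fractions was not settled, and the main fits took no pairing. Same-numbered libraries deviated together with r from -0.07 to 0.72 in signal and from -0.03 to 0.76 in the ratio. The ratio r was 0.76, 0.76 and 0.75 in replicates 1, 2 and 11, and lower in the others. Only 1 of 10 correlated best with its own number. The fit with the replicate number as a block used the 10 numbers held by both fractions and so also left out naked replicate 10. It called 33 genes for signal, 60 for the ratio and 1260 windows, against 32, 36 and 582 on the same libraries without the block. No call of the 5 genes changed. The planned edgeR fits were not run. Depth limits trnR and trnC most, with 17 and 38 counts in the lowest library.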

Other observations

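The nucleoid libraries did not form 1 cloud in trnC. Signal in trnC was 77.3 to 107 in nucleoid replicates 1 to 5 and 40.8 to 56.4 in replicates 6, 7, 8, 9 and 11, with no library between. Signal in trnQ was 85.6 to 104 in the first of these sets and 45.5 to 79.4 in the other, also with no overlap. Signal in trnR was 44.4 to 62.6 in the first set and 51.3 to 75.8 in the other. These sets were seen in the values and are not groups of the study, so they were not compared by a test. The second set also held the 4 nucleoid libraries with the fewest counts (202725 to 725239) and the one with the most (1813905).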
